A study of Mus musculus with 16 samples.

Results

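The 6 genes Adipoq, Lep, Retn, Cfd, Rbp4 and Nampt, whose products are secreted by fat cells, were followed through 16 ATAC-seq peak lists from mouse organs. The members were chosen by name, as 6 of 21938 protein-coding genes of GENCODE vM21, and for each gene the deposited peaks were collected in 2 places. A peak was counted as a promoter region when its summit lay within 3 kb of an annotated start of the gene, and as a distal region when the summit lay elsewhere in the gene or within 20 kb of it and not within 3 kb of the start of another protein-coding gene. White and brown adipose tissue, liver, kidney, lung, spleen, heart and muscle were each taken from male C57BL/6 mice in 2 states, fed or after 24 h of fasting. The animals were obtained at 12 weeks, no genetic change is named for any group, and they gave 1 library per tissue and state from tissue pooled over 3 mice. The tissues of a state were collected from the same group of 3 mice, so tests that take the 8 tissues as units do not rest on independent animals, and their p-values measure the spread between tissues only. No library had a replicate, so a fed and a fasting value of 1 tissue differ without any measure of animal-to-animal error.

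The 6 proteins are the classic secreted products of adipose tissue. Adiponectin (Adipoq) acts on liver and muscle to raise insulin sensitivity, leptin (Lep) reports energy stores to the hypothalamus, and resistin (Retn) is in mice a product of white fat linked to insulin resistance. Adipsin (Cfd) is complement factor D, the protease that starts the alternative complement pathway. Retinol-binding protein (Rbp4) carries vitamin A in blood and is made above all by hepatocytes, with adipose tissue as a further source, and Nampt (visfatin) is the rate-limiting enzyme of NAD+ salvage, expressed in nearly all cells. ATAC-seq marks open chromatin by the insertions of a transposase, and promoters and enhancers in use are usually open.

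Strength was read as the percentile of a region's p-value within its own list, 100 being the strongest region of the library and 0 standing for a gene with no region listed in the window. The lists held 149835 to 239804 regions, and the genome-wide background under a summit, which grows with depth, ran from 2.80 tags in the fed liver library to 12.8 tags in the fed brown adipose library. Each list was kept to about 300000 rows, so the weakest region listed stood at a −log10 p of 2.48 in fasting brown adipose and of 7.11 in fed brown adipose, and a region of middling strength could be missing from one list and present in another. Marker lists were highest in the tissue named on the label for liver, muscle, brown adipose, spleen, heart, lung and kidney. The 6 adipocyte markers (Plin1, Cidec, Fabp4, Acvr1c, Lipe and Gpd1) had a mean promoter percentile of 92.9 in brown and 91.4 in white adipose, against 66.3 in lung to 81.7 in liver for the other tissues. Whole tissue was used, so a weak region can stand for a site open in few cells or slightly open in many, and the pair cannot be told apart.

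A promoter region with a q-value under 0.01 was present in all 4 adipose libraries for 6 of the 6 genes, where 66.1% of all protein-coding genes had one. It was present in all 16 libraries for 2 of the 6, Cfd and Nampt, against 59.7% of all genes. The promoter percentile was higher in all 4 adipose libraries than in all 12 others for Lep and Retn, 2 of the 6, a pattern found in 0.875% of all genes. When only regions within 1 kb of a start were taken, 4 of the 6 had it, Adipoq, Lep, Retn and Cfd, against 0.843% of all genes. The same pattern in the distal regions was found for 0 of the 6 genes and for 0.948% of all genes.

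**Figure D1:**
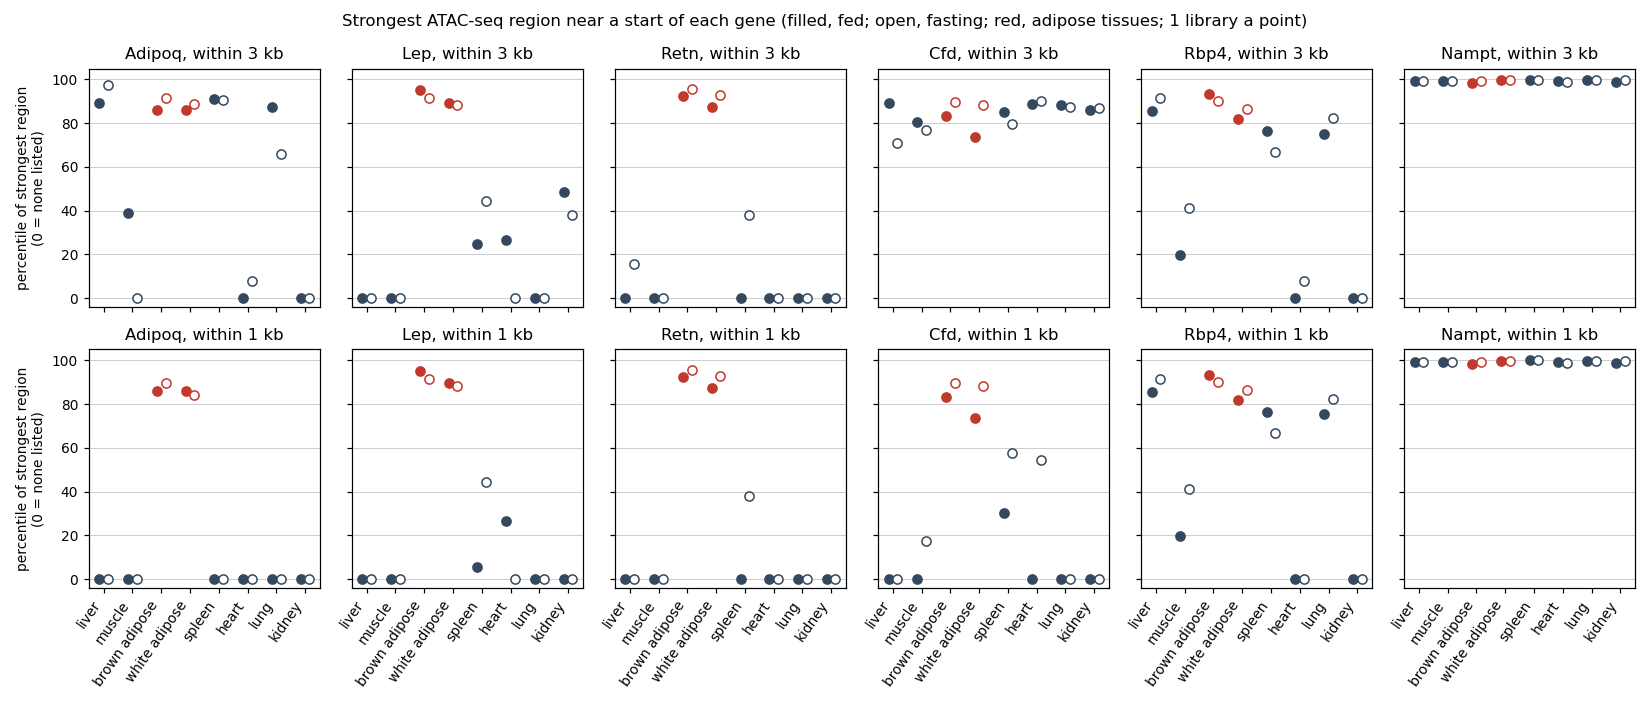
Percentile of the strongest region within 3 kb (upper row) and 1 kb (lower row) of a start of each gene, by tissue, with fed libraries filled, fasting libraries open and adipose tissues in red. Within 1 kb, Adipoq has a region in the 4 adipose libraries, at 84.4 to 89.6, and none in the 12 others, while Nampt lies at 98.4 or above in all 16.

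Adipoq lies on chromosome 16 (chr16:23146536-23158028 in GRCm38, plus strand), and its own start was open in fat alone among these lists. The region over the start, chr16:23146239-23146756, reached a percentile of 85.9 (fed) and 89.6 (fasting) in brown adipose, and in white adipose of 86.0 (fed) and 84.4 (fasting). No region was listed within 1 kb of the start in the 12 other libraries, so the groups did not overlap. In tags, the summit held 539 (95% Poisson interval 494 to 586) in fed brown adipose, 141 (119 to 166) in fasting brown adipose, 182 (157 to 210) in fed white adipose and 93 (75.1 to 114) in fasting white adipose. The weakest summit that the other lists held ranged from 9 tags in fasting liver to 26 tags in fasting muscle. The 250 bases before the RefSeq start (chr16:23146286-23146535, plus strand) are shown because the adipose summits fall on them or beside them, with matches to the motifs described further on in capitals. They hold no CpG at all.

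Adipoq promoter: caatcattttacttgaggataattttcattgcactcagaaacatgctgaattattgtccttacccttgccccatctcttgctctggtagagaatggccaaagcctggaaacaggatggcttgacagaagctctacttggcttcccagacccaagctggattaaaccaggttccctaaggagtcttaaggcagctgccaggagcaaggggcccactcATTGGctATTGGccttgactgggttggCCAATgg

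A second region, 2.0 kb before the Adipoq start and 16.8 kb from the nearest other protein-coding start, that of Rfc4, had another distribution. It was listed in the 4 adipose libraries at 78.9, 91.8, 82.0 and 88.8, and also in both liver, both spleen and both lung libraries and in fed muscle. Its percentile was 89.4 in fed and 97.4 in fasting liver, 91.2 in fed and 90.4 in fasting spleen, 87.5 in fed and 66.1 in fasting lung, and 39.0 in fed muscle. Liver and spleen thus had this upstream site within or above the range of fat, without the start site. In fasting muscle, heart and kidney it was not listed. A window of 201 bases around its strongest summit (chr16:23144434-23144634, plus strand) is given for comparison with the start.

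Adipoq 2 kb upstream: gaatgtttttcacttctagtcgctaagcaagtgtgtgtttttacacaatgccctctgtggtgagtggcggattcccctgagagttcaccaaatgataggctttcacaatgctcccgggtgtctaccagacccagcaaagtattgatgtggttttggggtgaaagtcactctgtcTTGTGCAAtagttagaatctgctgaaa

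Inside the gene, a region in the intron 0.543 kb after the start was listed in the 4 adipose libraries and in no other, at 68.8 (fed) and 77.9 (fasting) in brown and at 46.4 (fed) and 18.2 (fasting) in white adipose. A further intronic region at 2.59 kb was listed in adipose, liver and spleen. The strongest distal region of Adipoq, in the intron at 5.07 kb, was listed in all 16 libraries and was lower in fat, at 73.1 to 83.1, than in liver, where it reached 98.2 fed and 95.3 fasting. Beyond the gene end, regions at 12.5 kb and 13.3 kb were listed in fed and fasting white adipose at 49.8 and 64.0 and at 71.1 and 65.4, and the first of them was listed in no tissue outside fat. The region 18.1 kb after the start was highest in heart, at 89.8 fed and 85.9 fasting, and was not listed in white adipose, kidney or spleen, and the region 10.6 kb before the start was listed in all 16 libraries, highest in fasting spleen at 78.9.

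Lep lies on chromosome 6 (chr6:29060220-29073877, plus strand), with a first annotated start at 29060220 and a second at 29065462. The region over the first start, chr6:29059636-29060771, had its summit 103 to 124 bp before the start in every adipose library. Its percentile was 95.1 (fed) and 91.6 (fasting) in brown adipose, and in white adipose 89.5 (fed) and 88.4 (fasting). Outside fat the same region was listed in fed heart at 26.7, on 14 tags (7.65 to 23.5), and in fed spleen at 5.40, on 11 tags (5.49 to 19.7), and neither passed a q-value of 0.01. In fat it held 597, 109, 190 and 79 tags in the same order as the percentiles.

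The 250 bases before the RefSeq start of Lep (chr6:29059971-29060220, plus strand) contain the summits of all 4 adipose libraries. The second capital run in them is TTGCGCAA, which reads the same on both strands and is a match to the C/EBP letters TTGCNNAA, 55 to 48 bases before the start. C/EBP factors are regulators of fat cell differentiation.

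Lep promoter: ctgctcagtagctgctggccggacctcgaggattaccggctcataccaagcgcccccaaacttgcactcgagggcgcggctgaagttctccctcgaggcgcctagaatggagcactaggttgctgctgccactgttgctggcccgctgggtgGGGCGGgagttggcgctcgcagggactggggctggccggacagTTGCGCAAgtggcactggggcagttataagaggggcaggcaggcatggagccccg

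The second Lep start, inside the gene, was open in 3 of the 4 adipose libraries, at 69.6 in fasting brown, 64.6 in fed white and 81.3 in fasting white adipose, and was not listed in fed brown adipose. It was listed in fasting spleen at 44.4 and in fed heart at 11.7. Kidney had its own intronic region 6.50 kb after the first start, at 48.5 fed and 38.0 fasting, with no counterpart in fat.

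The strongest region of the Lep locus was not at a start. It lay 28.4 kb after the first start, beyond the gene end and 42.7 kb from the nearest other protein-coding start, that of Rbm28, and reached 96.8, 97.1, 95.4 and 96.4 in the adipose libraries. Heart had it as strongly, at 96.4 fed and 97.1 fasting, and muscle had it at 83.9 and 86.0, whereas the start region was not listed in muscle. In both lung libraries nothing was listed there. Because fat, heart and muscle share this site, a window of 201 bases around its strongest summit is printed (chr6:29088524-29088724, plus strand), without a CpG and without a match to any motif searched.

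Lep 28 kb downstream: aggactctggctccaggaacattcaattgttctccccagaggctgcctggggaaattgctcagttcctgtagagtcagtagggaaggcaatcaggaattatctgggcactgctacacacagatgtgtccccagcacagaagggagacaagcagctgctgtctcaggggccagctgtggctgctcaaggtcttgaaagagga

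The region 16.4 kb before Lep, chr6:29043330-29044405, followed fat more closely, at 91.0 and 93.0 in brown and 81.4 and 72.6 in white adipose, with kidney at 52.8 and 43.3 and no other library. The region 10 kb before the start was stronger in kidney, at 91.0 and 94.1, and in white adipose, at 88.2 and 91.8, than in brown adipose, at 44.2 and 53.8. Past the gene end, the region at 13.8 kb was at 59.7 to 88.9 in fat and otherwise in fasting liver (77.0) and fasting spleen (70.6), and the region at 21.7 kb was at 58.5 to 85.3 in fat, at 56.3 and 73.7 in heart and at 52.6 in fasting muscle.

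Retn lies on chromosome 8 (chr8:3655770-3660110, plus strand) with 1 annotated start. Its start region, chr8:3654805-3656012, had a summit 18 to 51 bp after the start, in the UTR of the first exon, in each adipose library. The percentile was 92.3 (fed) and 95.7 (fasting) in brown adipose, and in white adipose 87.5 (fed) and 93.0 (fasting), on 464, 169, 200 and 130 tags. Fasting spleen had a region 420 bp before the start at 38.1, on 16 tags (9.15 to 26.0), and fasting liver one at 15.5 further upstream. The other 10 libraries outside fat listed none within 3 kb. The bases before the start (chr8:3655520-3655769, plus strand) hold 2 CpGs and no match to a motif searched.

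Retn promoter: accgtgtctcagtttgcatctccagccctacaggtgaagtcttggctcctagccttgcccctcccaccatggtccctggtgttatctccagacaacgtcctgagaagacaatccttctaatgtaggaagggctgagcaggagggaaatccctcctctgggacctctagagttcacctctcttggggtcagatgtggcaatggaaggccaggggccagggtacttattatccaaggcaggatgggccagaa

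A pair of regions before Retn reached percentiles like those of its start. The region 9.72 kb upstream, 4.44 kb from the start of Stxbp2, was listed in 14 libraries, at 94.6 to 97.6 in fat, 96.8 and 96.1 in spleen, 93.6 and 90.9 in liver, and not in heart. The region 8.69 kb upstream, chr8:3646683-3647408, was at 93.6, 97.1, 88.3 and 93.9 in the adipose libraries, and outside fat it was listed in fasting liver at 60.0 and fasting kidney at 28.6. It had 580, 224, 195 and 133 tags in fat, 18 in fasting liver and 23 in fasting kidney. A weaker region between them, 9.35 kb upstream, was listed in the 4 adipose libraries and in no other, at 16.6 to 64.6. The region 5.33 kb after the start, past the gene end, was highest in spleen, at 76.8 and 87.8, and was listed in white but not in brown adipose. The window around the summit 8.69 kb upstream (chr8:3646977-3647177, plus strand) is shown because, like the start, it was strong in the 4 adipose libraries and weak or absent elsewhere.

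Retn 8.7 kb upstream: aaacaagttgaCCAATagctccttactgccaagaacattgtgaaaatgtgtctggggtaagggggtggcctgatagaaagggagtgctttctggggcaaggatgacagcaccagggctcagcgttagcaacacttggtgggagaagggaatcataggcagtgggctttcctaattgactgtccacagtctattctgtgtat

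Cfd is a short gene on chromosome 10 (chr10:79890853-79892655, plus strand) among 5 other protein-coding genes whose starts lie within 20 kb, among them the neutrophil proteases Elane and Prtn3. Its start region, chr10:79890532-79891059, was listed in the 4 adipose libraries and in fed spleen. The percentile was 83.3 (fed) and 89.5 (fasting) in brown adipose, 73.5 (fed) and 88.2 (fasting) in white adipose, and 30.3 in fed spleen on 17 tags (9.90 to 27.2). Within 1 kb of the start, fasting spleen reached 57.8 and fasting heart 54.3 with regions in a coding exon, and fasting muscle reached 17.6, all below the lowest adipose library. The 250 bases before the start (chr10:79890603-79890852, plus strand) hold 2 CpGs and no motif match.

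Cfd promoter: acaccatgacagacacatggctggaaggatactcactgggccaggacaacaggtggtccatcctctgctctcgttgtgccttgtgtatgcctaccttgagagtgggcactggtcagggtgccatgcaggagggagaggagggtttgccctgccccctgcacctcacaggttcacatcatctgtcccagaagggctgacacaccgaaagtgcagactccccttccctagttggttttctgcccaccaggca

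Within the full 3 kb, Cfd was open in all 16 libraries, because of a second region. It lay 2.13 kb after the start and past the gene end, chr10:79892807-79893280, 6.70 kb from the start of Med16, and was listed in 14 libraries at percentiles from 65.6 in fed brown adipose to 90.1 in fasting heart. The 2 libraries without it were fed and fasting white adipose. Each of the 12 libraries outside fat had its strongest Cfd region there, and each adipose library had its strongest at the start. The tags expected at the Cfd start from the local background were 68.2 in fed and 47.8 in fasting white adipose, against genome-wide levels of 10.02 and 5.87. In brown adipose, which listed the region, they were 85.4 fed and 30.8 fasting, against 12.8 and 6.76. A summit nearby had to exceed the local level to be listed. The part of this raised background in the missing region was not tested. The window around the summit (chr10:79892886-79893086, plus strand) holds 8 CpGs in 201 bases.

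Cfd 2.1 kb downstream: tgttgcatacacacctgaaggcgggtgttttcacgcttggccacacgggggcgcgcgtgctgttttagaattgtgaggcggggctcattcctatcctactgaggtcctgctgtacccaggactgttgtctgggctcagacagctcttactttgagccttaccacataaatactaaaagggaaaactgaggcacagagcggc

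Smaller regions flanked these sites. The one 2.62 kb after the start was listed in brown adipose at 75.9 and 78.3 and in heart at 67.9 and 79.8 but not in white adipose. The one 1.345 kb before the start was listed in fat at 59.6 to 83.8 and, more weakly, in fed spleen, fed liver and both lung libraries.

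Rbp4 lies on the minus strand of chromosome 19 (chr19:38116629-38125281) and has 4 annotated starts within 556 bp. A start region was listed in all 4 adipose libraries, at 93.5 and 90.1 in brown and 82.1 and 86.5 in white adipose, and in both liver libraries, at 85.5 fed and 91.3 fasting. Spleen (76.4 and 66.8) and lung (75.3 and 82.6) had it at a lower percentile, muscle at 19.7 and 41.2, and kidney and heart had none within 1 kb. The groups overlapped, since fasting liver lay above 3 of the 4 adipose libraries.

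The position of the strongest summit varied between libraries. It was 103 or 109 bp after the first start in both brown libraries and fed white adipose and 291 bp after it in fasting white adipose. In liver it was at 549 and 540 bp, and in spleen and lung between 648 and 699 bp. In muscle it was at 295 bp fed and 638 bp fasting, so libraries of 1 tissue differed too. Fasting liver also listed start regions with summits at 46 bp (85.3) and 277 bp (87.6), close to those of fat. Fed liver also listed another, with its summit 182 bp before the first start (80.8), on 37 tags. The strongest summit held 51 tags (38.0 to 67.1) in fed and 152 (129 to 178) in fasting liver, over backgrounds of 2.80 and 2.82. The median region of those lists held 15 and 20 tags. The 250 bases before the upstream RefSeq start (chr19:38125322-38125571, minus strand) are given, and the inner RefSeq start is left out because the bases before it are exon of the longer transcripts.

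Rbp4 promoter: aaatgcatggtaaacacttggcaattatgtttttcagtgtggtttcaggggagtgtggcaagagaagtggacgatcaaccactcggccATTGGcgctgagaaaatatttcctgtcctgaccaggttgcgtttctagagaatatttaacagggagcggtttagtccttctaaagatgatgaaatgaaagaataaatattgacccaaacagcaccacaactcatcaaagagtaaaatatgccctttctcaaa

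Away from its starts, the Rbp4 window held regions listed mainly in liver and others listed in fat. The strongest of them in fat, at 91.3 to 95.9, lay within 3 kb of the start of another protein-coding gene. It was also listed outside fat, at 90.6 in fasting lung and 90.4 in fasting liver. The intronic region 4.92 kb after the first start, chr19:38119805-38121005, was the strongest of the gene in any library, at 98.5 in fed and 99.2 in fasting liver on 119 and 337 tags, and otherwise appeared in fasting white adipose at 4.5. The region 9.96 kb after the start, beyond the gene end, was at 91.7 and 97.1 in liver and at or below 24.4 elsewhere. In fat, the region 18.0 kb after the start was listed in the 4 adipose libraries and no other, at 50.6 and 72.9 in brown and 40.6 and 83.2 in white adipose. It lies inside Ffar4, a fatty acid receptor gene of adipocytes, 10.2 kb from the Ffar4 start, so which gene it serves is not given by its position. The region 8.90 kb after the start was listed in fasting brown and fasting white adipose, at 55.7 and 59.3, and in no other library. The window around the liver summit (chr19:38120258-38120458, plus strand) begins with a short repeated stretch.

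Rbp4 intron: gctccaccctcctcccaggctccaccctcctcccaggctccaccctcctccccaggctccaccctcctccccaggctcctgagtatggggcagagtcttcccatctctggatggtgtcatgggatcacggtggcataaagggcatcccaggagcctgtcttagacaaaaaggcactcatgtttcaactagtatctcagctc

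Nampt lies on chromosome 12 (chr12:32819545-32853349, plus strand) and has 3 annotated starts within 1256 bp. Its promoter was open at full strength everywhere, at 98.4 in fed brown adipose to 99.98 in both spleen libraries. The summit lay 526 to 827 bp after the first start in every library, on 99 tags in fed liver to 1084 tags in fed brown adipose. Fat did not stand out, with percentiles of 98.4, 99.5, 99.8 and 99.6, which overlap the range of the 12 others. The bases before the RefSeq start (chr12:32820085-32820334, plus strand) are the opposite of those of Adipoq, with 27 CpGs, an observed-over-expected CpG ratio of 0.756 and 5 GC boxes.

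Nampt promoter: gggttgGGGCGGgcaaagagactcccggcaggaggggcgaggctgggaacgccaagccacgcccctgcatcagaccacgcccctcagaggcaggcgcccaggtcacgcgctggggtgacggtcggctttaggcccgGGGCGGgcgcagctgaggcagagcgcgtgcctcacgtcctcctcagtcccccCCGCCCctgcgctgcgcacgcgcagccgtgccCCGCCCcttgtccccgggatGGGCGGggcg

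Tissue differences at Nampt appeared in its distal regions instead. The intronic region at 7.64 kb was highest in spleen, at 93.4 and 88.2, and lung, at 89.3 and 81.0, was at 56.3 to 70.5 in fat, and was not listed in muscle or heart. The region at 15.4 kb, over a coding exon, was highest in brown adipose, at 86.9 and 91.4, then in white adipose, at 76.9 and 73.0, and was not listed in liver, spleen or heart. The region at 35.6 kb, past the gene end, was highest in muscle, at 89.0 and 89.4. The region at 37.6 kb was at 82.3 to 90.4 in fat, at 88.8 and 88.5 in heart, and at 81.8 and 82.5 in muscle. It was at 70.2 and 60.0 in liver, at 61.6 in fasting spleen, at 24.8 and 25.3 in kidney and at 9.62 in fasting lung.

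**Figure D2:**
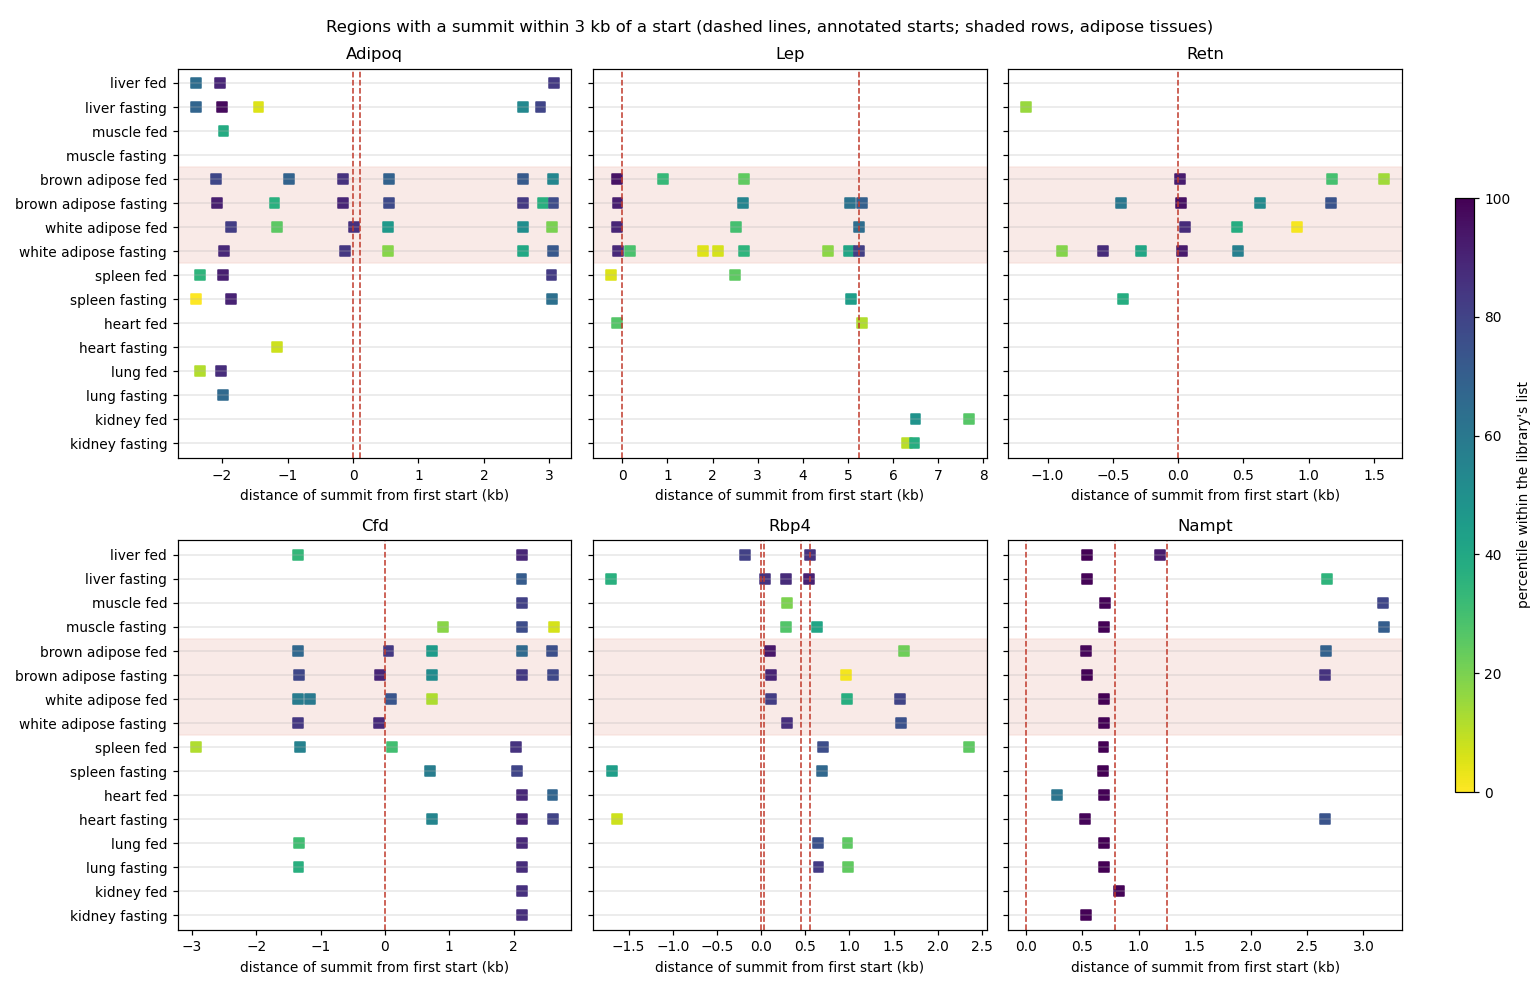
Position of each listed summit within 3 kb of a start, as distance from the first start in kb, for the 16 libraries, coloured by percentile, with annotated starts as dashed lines and adipose libraries shaded. The start of Adipoq is marked in the 4 adipose rows alone, the region 2.0 kb before it also in liver, spleen and lung, and the region 2.13 kb after the Cfd start in every row except white adipose.

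**Figure D3:**
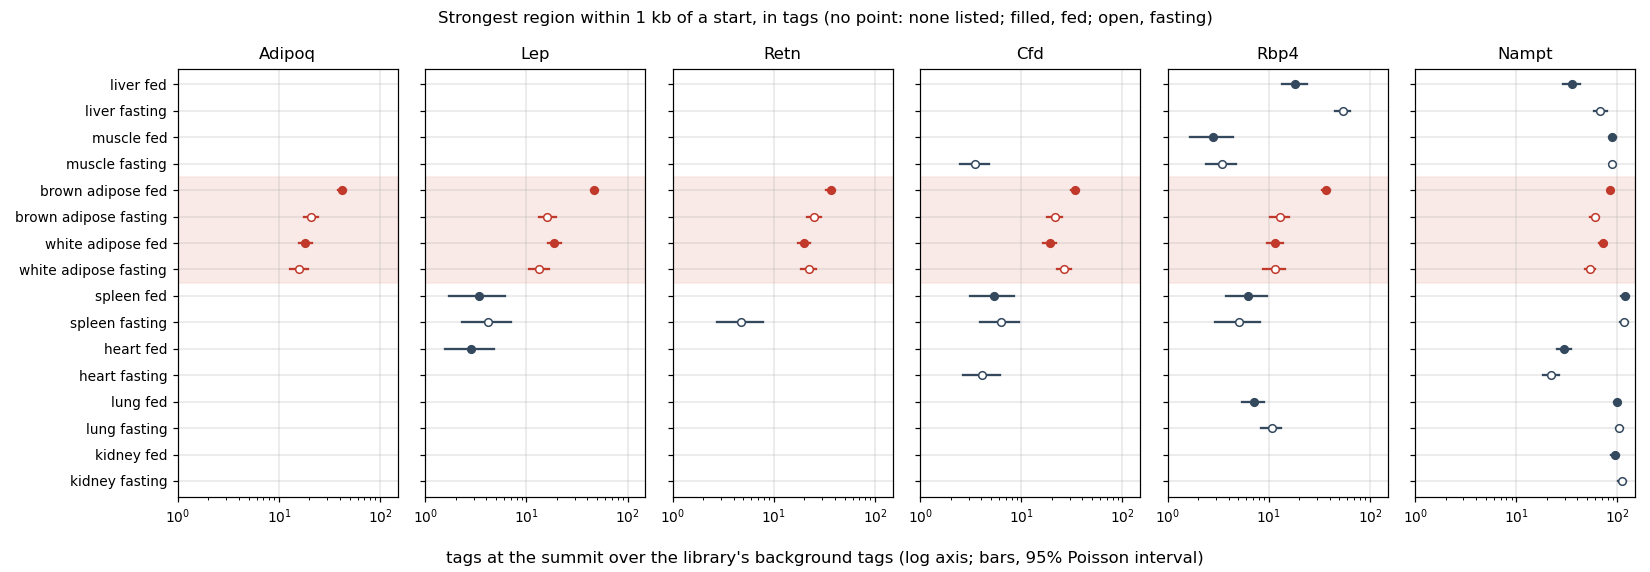
Tags at the strongest summit within 1 kb of a start, divided by the background tags of the library, on a log axis with 95% Poisson intervals that cover counting error only. For Lep the adipose libraries lie at 13.4 to 46.8 times background and the other libraries with a region at 4.17 times or less.

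The CpG ratio of the bases before the start, the number of CpGs over that expected from the base content, differed among the 6 genes. The CpG ratio was 0 for Adipoq, 0.0966 for Cfd and 0.107 for Retn, below the median of 0.373 over the 32851 promoters of the RefSeq table (GRCm38.p6), and 0.485 for the upstream start of Rbp4, 0.606 for Lep and 0.756 for Nampt. The inner start of Rbp4 was at 0.900. The 3 genes with the fewest CpGs were thus among the 4 whose start was ranked higher in fat than in all other tissues, and Lep, the fourth, was above the median. In all, 5 motifs were searched on both strands of the 250 bases, and no match overlapped that of another motif. TATAAA was found in 1 of the 6 genes, at the inner Rbp4 start, and in 12.4% of all promoters. CCAAT was found in 2 of 6, Adipoq and Rbp4, against 33.8%. GGGCGG was found in 3 of 6, Lep, Nampt and the inner Rbp4 start, against 32.7%. TTGCNNAA, the C/EBP letters, was found in 2 of 6, Lep and the inner Rbp4 start, against 9.56%. The direct repeat AGGNCANAGGNCA, of the kind bound by PPARγ with RXR, was found in 0 of 6 and in 0.338% of all promoters. Rbp4 was counted if either of its RefSeq starts matched, whereas the shares are per promoter, so its count had an added try. A match to letters is a description of the sequence.

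Across tissues, the adipose mean of the promoter percentile exceeded that of the 6 other tissues by 75.9 points for Lep (91.1 against 15.2) and by 87.7 points for Retn (92.1 against 4.47), each with an exact permutation p of 0.0357, the smallest that 28 choices of 2 tissues out of 8 allow. For Adipoq the difference was 40.7 points (p = 0.321, exact permutation), for Rbp4 42.5 points (p = 0.179, exact permutation), and for Cfd and Nampt it was −0.61 and −0.13 points. Restricted to 1 kb of a start, the difference was 86.5 points for Adipoq and 70.3 points for Cfd, each at the same smallest exact permutation p of 0.0357. The median over the 6 genes was 41.6 points and the median over all 21938 genes was 0. Adjusted over all genes by the method of Benjamini and Hochberg, 0 of the 6 and 0% of all genes passed 0.05, an outcome that the design all but fixed, since an exact p of 0.0357 can pass only where most genes of the genome reach it. Without adjustment, 220 genes (1.0%), Lep and Retn among them, were higher in fat and 491 genes (2.24%) lower, and no conclusion is drawn from these counts.

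The strongest distal region of a gene, taken over a wider window, differed less between fat and other tissues than the promoter for Lep, Retn, Rbp4 and Adipoq. Lep averaged 96.4 in fat and 71.7 elsewhere, Retn 95.9 and 66.3, Rbp4 62.3 and 39.2, Adipoq 78.6 and 87.4, and Nampt 87.1 and 87.7. Cfd had almost no distal value, since 5 neighbouring starts took most of its window, and fasting brown adipose at 55.3 was the one library above 3.58. None of the 6 differences passed adjustment (lowest adjusted p = 0.731, exact permutation), nor did any gene of the genome (0%), under the same limit on the p, with 235 higher and 951 lower at an unadjusted p under 0.05. Single distal regions could differ about as much as a promoter. Those with the largest excess in fat stood 76.5 points higher there for Lep, at 16.4 kb upstream, and 85.8 points higher for Retn, at 8.69 kb upstream.

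**Figure D4:**
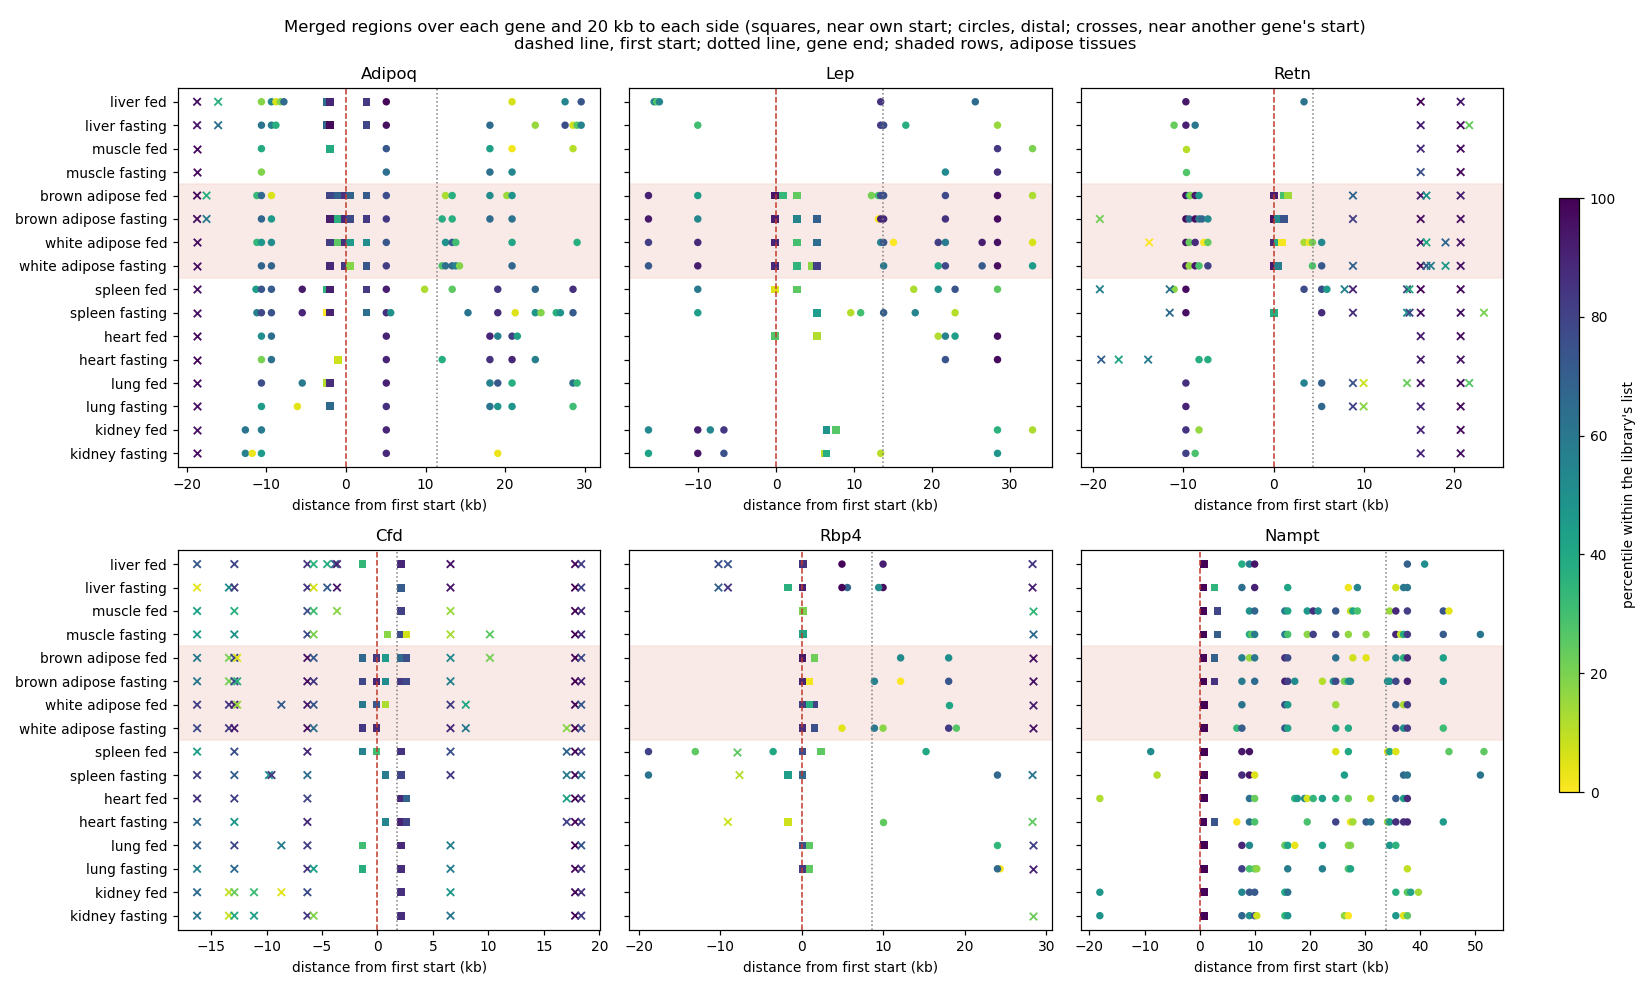
Regions with a q-value under 0.01 over each gene and 20 kb to each side, merged over the 16 libraries, as distance from the first start in kb, coloured by percentile. Squares are regions near an own start, circles distal regions and crosses regions near the start of another gene, and the adipose rows are shaded. The 28.4 kb region of Lep is dark in fat, heart and muscle, and the 4.92 kb region of Rbp4 in liver.

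Set against each other within libraries, promoter and distal regions took opposite ranks in different genes. The strongest distal region exceeded the strongest promoter region in 14 of 16 libraries for Lep, where the mean promoter percentile was 34.2 and the mean distal percentile 77.9 (adjusted p = 0.0290, exact sign-flip permutation), and in 15 of 16 for Retn, where the means were 26.4 and 73.7 (adjusted p = 0.0172, exact sign-flip permutation). The remaining libraries listed no region in either place. In fat the promoter and distal means lay closer, at 91.1 and 96.4 for Lep and 92.1 and 95.9 for Retn. Elsewhere they were 15.2 and 71.7 for Lep and 4.47 and 66.3 for Retn, and the distal window was the wider. The promoter exceeded the distal region in all 16 libraries for Cfd, with means of 84.1 and 3.89, and for Nampt, with means of 99.4 and 87.6 (adjusted p = 0.0172 for each, exact sign-flip permutation). For Cfd this outcome was all but fixed, since neighbouring starts left little of its distal window to compare, and no conclusion is drawn from it. The test ran over the 8 tissues and was adjusted over all genes. For Adipoq, with means of 57.6 and 85.2, and Rbp4, with means of 56.2 and 45.0, the difference did not pass (adjusted p = 0.186 and 0.175, exact sign-flip permutation). Over all genes, 42.8% had a higher promoter and 13.9% a higher distal region by this test. The call for Lep was lost with an extension of 10 kb (adjusted p = 0.0957, exact sign-flip permutation) and that for Retn with a q-value under 1e-06 (adjusted p = 0.0549, exact sign-flip permutation). The call for Cfd was lost with a window of 1 kb (adjusted p = 0.0933, exact sign-flip permutation) and turned with an extension of 50 kb (difference −9.07 points, adjusted p = 0.0178, exact sign-flip permutation). With regions near the starts of neighbouring genes kept, the promoter was the lower by the same test for Cfd (−15.3 points), Rbp4 (−8.84 points) and Adipoq (−39.1 points), each at an adjusted p of 0.0176 (exact sign-flip permutation).

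No promoter of the 6 passed the test of fasting against fed. The mean fasting minus fed difference over the 8 tissues was −4.60 points for Adipoq, −2.80 for Lep, 7.82 for Retn, −0.73 for Cfd, 4.21 for Rbp4 and 0.13 for Nampt. Single tissues carried part of these means, and without spleen the value for Retn was 3.49, and without muscle that for Rbp4 was 1.74. The lowest exact sign-flip permutation p was 0.125, for Retn, 0 of the 6 genes and 0% of all genes passed adjustment, and 479 genes were higher and 446 lower at an unadjusted p under 0.05. In fat itself, fasting values lay within 20 points of fed ones in all 12 pairs of a gene and an adipose tissue. The largest was Cfd in white adipose, at 73.5 fed and 88.2 fasting, followed by Cfd in brown adipose, at 83.3 and 89.5. The strongest Adipoq region of both adipose tissues was the start in the fed library and the region 2.0 kb upstream in the fasting one. In fasting brown adipose these held 141 (119 to 166) and 150 (127 to 176) tags. In fasting white adipose they held 93 (75.1 to 114) and 100 (81.4 to 122), so the order lay within counting error. The start itself went from 85.9 to 89.6 in brown and from 86.0 to 84.4 in white adipose. Leptin, whose secretion falls on fasting, stood at 95.1 fed and 91.6 fasting in brown and 89.5 and 88.4 in white adipose. Percentiles are ranks within lists of unequal length. The brown adipose list held 149835 regions fed and 189706 fasting, and the white adipose list 156687 and 178341. Added weak regions raise the percentile of a region of fixed rank. The parts of list length, and of signal over the library as a whole, in these shifts were not tested.

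A change of 20 points or more was met in 5 of 48 pairs of a gene and a tissue, all outside fat. There were 2 higher in fasting, Retn in spleen, from none to 38.1, and Rbp4 in muscle, from 19.7 to 41.2, against 3.42% of all pairs of a gene and a tissue. There were 3 lower in fasting, Adipoq in muscle, from 39.0 to none, Adipoq in lung, from 87.5 to 66.1, and Lep in heart, from 26.7 to none, against 3.99% of all pairs. In 4 of these 5 the stronger of the values rested on at most 36 tags, and lung Adipoq went from 104 tags (85.0 to 126) to 41 (29.4 to 55.6) over backgrounds of 8.92 and 7.14.

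No distal difference between the states passed the test either. The mean difference was 13.4 points for Rbp4, the highest of the 6 (exact sign-flip permutation p = 0.0938), with white adipose at 40.6 fed and 83.2 fasting, lung at 34.2 and 66.7, and spleen at 80.2 and 66.8. It was 5.91 with an extension of 10 kb, 1.97 with q under 1e-06 and −10.3 with an extension of 50 kb. It was −0.67 for Adipoq, 0.16 for Lep, 6.47 for Retn, 6.94 for Cfd and −0.15 for Nampt. The value for Retn was 1.94 without heart, and that for Cfd was 0.0302 without brown adipose. After adjustment 0 of the 6 and 0% of all genes passed, with 532 higher and 476 lower at an unadjusted p under 0.05.

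**Figure D5:**
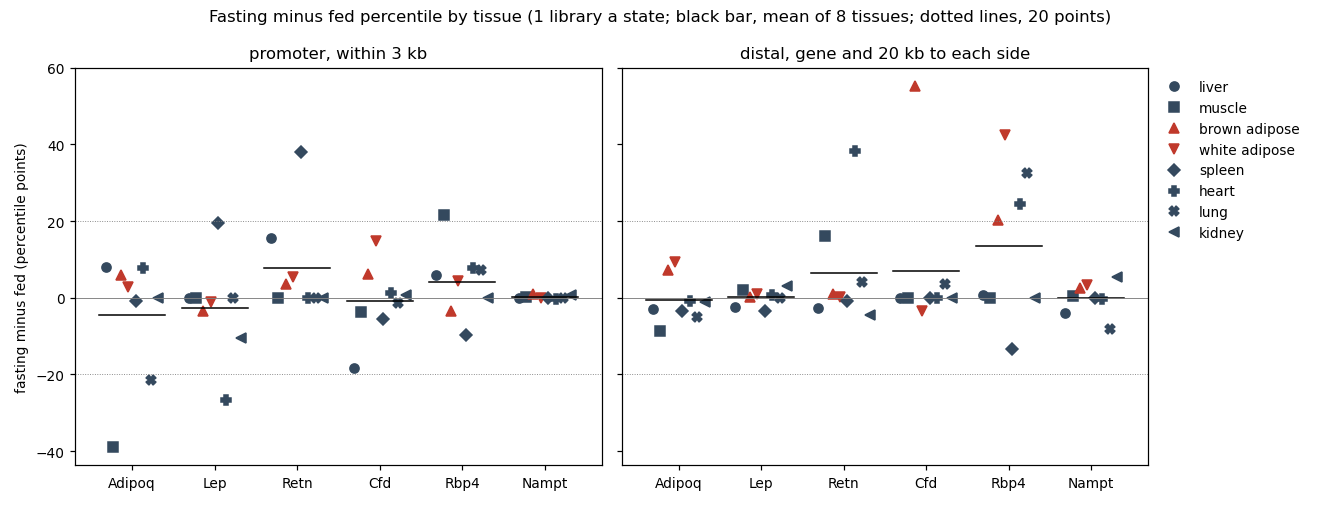
Fasting minus fed percentile of the strongest promoter region (left) and distal region (right) by gene, with 1 symbol for each tissue, adipose tissues in red, the mean of 8 tissues as a black bar and dotted lines at 20 points. In the left panel the red symbols lie between −3.5 and 14.7 points, and the symbols beyond 20 points are muscle, lung, heart and spleen.

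Of 10 receptors and partners of these hormones, 7 had a promoter region in all 4 adipose libraries (66.1% of all genes), 5 had one in all 16 (59.7% of all genes), and 0 were higher in all 4 adipose libraries than in the others (0.875% of all genes). Lepr, the leptin receptor, had no promoter region in the 4 adipose libraries, and up to 80.5 elsewhere. The adiponectin receptors Adipor1 and Adipor2 averaged 98.4 and 96.0 in fat and 98.1 and 97.0 elsewhere, C3, the complement component on whose pathway adipsin acts, averaged 93.5 and 84.0, and Cdh13, a cadherin that binds adiponectin, 77.9 and 62.3. Ttr, which binds retinol-binding protein in plasma, reached 93.3 in its highest library outside fat and averaged 20.2 in fat.

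Of 8 other secreted factors of adipocytes, 8 had a promoter region in all 4 adipose libraries (66.1% of all genes) and 0 were higher in all 4 than in the others (0.875% of all genes), with Serpina12 (vaspin) at 92.2 in fat and 62.9 elsewhere and Lcn2 at 82.2 and 54.6. Within 1 kb of a start, the lowest adipose value of Serpina12 was 0 and its highest value elsewhere 5.40. Of 7 adipogenic regulators, 7 had a promoter region in all 16 libraries (59.7% of all genes), among them Pparg, the master regulator of fat cells, at 94.9 in fat and 88.9 elsewhere, and Cebpa, at 95.6 and 96.0. None of these 25 genes reached an unadjusted exact permutation p under 0.05 for fat against the other tissues, which 1.0% of all genes did with a higher and 2.24% with a lower value in fat. The median difference was −0.38 points for the receptors and partners, 8.86 for the secreted factors and 1.84 for the regulators, beside 0 over all genes.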

How the data were processed

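ATAC-seq peak lists of 8 tissues in 2 states were used as deposited. The authors aligned reads to GRCm38 with Bowtie2 and called peaks with MACS2 on 1 pooled library each. In the deposited files, fold enrichment is a ratio of summit signal to local expectation, the p-value is given as −log10 p and the q-value as −log10 q. Rows with the same bounds were joined as 1 region with the smallest p-value, and regions were ranked by it within each list. Summit tags were recovered from the fold and the p-value, and 98.3% to 99.99% of rows gave whole numbers within 0.001. Intervals on tags are exact Poisson intervals (95%) and cover counting error only. Starts came from GENCODE vM21 on GRCm38. Python 3.11.15 with numpy 2.4.6, scipy 1.17.1, pandas 2.3.3 and matplotlib 3.10.9 was used. Tissues were compared with two-sided exact permutation tests on tissue means, fasting and promoter against distal with exact sign-flip tests over 8 tissues, each run on all 21938 genes with Benjamini-Hochberg adjustment over all of them and checked on simulated data. Named distal regions were, for each gene, up to 3 with the highest mean percentile and up to 2 with the largest adipose excess, and the regions near the starts and the 5 windows printed away from them were chosen after their values were seen. The members and gene lists were chosen with earlier results of these data known. Alternatives were other windows, extensions, thresholds, rankings and subsets of libraries.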

Additional observations from a re-analysis of the deposited data

How the results depend on the processing

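No library had a replicate, so depth and the row limit of each list bound what absence means, and absence from a list is not absence of open chromatin. The samples carry no replicate numbers. The fasting test pairs the 2 libraries of a tissue. The count of genes with a promoter region in all 4 adipose libraries was 6 under every threshold and window tried, and 0 of the 6 passed adjustment for fasting under any alternative. For fat against other tissues the smallest exact p under every alternative was 0.0357, so the lack of an adjusted call there says nothing about stability. The single-row alternative was chosen after seeing the data. Under other settings the values below changed, and the cause was not tested.

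With a window of 1 kb, 1 gene had a region in all 16 libraries and 4 genes were higher in all adipose libraries, and with the 50000 strongest regions 1 gene had a region in all 16. Pairs of a gene and a tissue 20 points higher in fasting numbered 6 with ranking by fold, 5 with a window of 1 kb, 1 with q under 1e-06, 0 with the 50000 strongest regions and 1 with single deposited rows, and pairs 20 points lower numbered 1 with a window of 1 kb. For fat minus other tissues at the promoter, Cfd turned positive with a window of 1 kb (70.3), the 50000 strongest regions (5.32), log2 tags over background (0.91), single rows (1.16) and fasting libraries alone (6.86), and Nampt with fasting libraries alone (0.0780). For the distal region, Cfd turned to −1.49 and Nampt to 0.334 with a 50 kb extension, Retn to −0.474 with regions near other starts kept, and Nampt to 1.39 with fasting libraries alone. For fasting minus fed at the promoter, Cfd became 1.91 with ranking by fold, Adipoq 0.259, Lep 0.960 and Cfd 15.1 with a window of 1 kb, Rbp4 −2.63 with q under 1e-06 and Nampt −0.014 in log2 tags. At the distal region, Lep became −0.0633 and Rbp4 −10.3 with a 50 kb extension, and Retn −0.581 with other starts kept and −0.319 with q under 1e-06. For promoter minus distal, Cfd became −9.07 and Rbp4 −19.4 with a 50 kb extension, and −15.3 and −8.84 with other starts kept. Leaving out 1 tissue in turn, the promoter fasting difference ran from −6.41 to 0.312 for Adipoq (without muscle), −5.97 to 0.624 for Lep (without heart), −2.93 to 1.77 for Cfd (without liver) and −0.00386 to 0.207 for Nampt (without brown adipose turned it negative). The distal one ran from −2.10 to 0.473 for Adipoq (without muscle), −0.267 to 0.669 for Lep (negative without muscle or kidney) and −0.929 to 1.01 for Nampt (positive without liver or lung).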

Other observations

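Likeness between the promoters of the 6 genes over the 16 libraries is given here as Pearson correlations of the promoter percentile without a test, since libraries of 1 tissue share its cells and many libraries share a value of 0. Lep and Retn were alike (r = 0.905), as were Adipoq and Rbp4 (r = 0.932), whereas Adipoq and Lep were not close (r = 0.293). Cfd was at or below 0.00148 with each of the other 5, and Nampt at or below 0.348. Among all protein-coding genes, the promoter most like that of Retn was Hoxb13 (r = 0.981), followed by the keratin gene Krt15 (r = 0.967). The promoter most like that of Rbp4 was Hp (r = 0.959), which encodes haptoglobin, a plasma protein made by liver and fat, and Hp was second for Adipoq (r = 0.935) after Zfp819 (r = 0.947). For Nampt, where all values lay within a narrow range, the highest were Zfp653 and the overlapping model Gm49318 (r = 0.886 for each) and Emb (r = 0.881), and for Cfd the highest after Rttn (r = 0.900) was Hcrtr1 (r = 0.848).

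Markers of other cells within the adipose libraries were as follows. The 5 skeletal muscle markers averaged 60.5 and 61.8 in fed and fasting white adipose against 88.1 and 88.4 in muscle, and 49.4 and 26.4 in fed and fasting brown adipose. The 5 macrophage markers averaged 41.7 and 65.7 in fed and fasting white adipose against 81.2 and 75.1 in spleen and 20.2 and 67.6 in heart. The 4 epididymis markers averaged 52.6 and 15.7 in white adipose, fed and fasting, and 0 in both brown adipose libraries. In the same order, this list stood at 41.0 and 2.53 in spleen, 33.9 and 22.7 in heart and 32.3 and 21.3 in muscle. It stood at 16.8 and 16.2 in liver, 13.6 and 4.26 in kidney and 5.93 and 0 in lung. Fed white adipose was thus the highest of the 16 libraries for this list, ahead of fed spleen at 41.0, whereas fasting white adipose was not set apart by it. The 5 brown adipocyte markers averaged 90.0 in brown and 57.1 in white adipose. The part of these markers in the values of the 6 genes was not tested.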
